A study of Homo sapiens with 26 samples.

Results

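The insulin-like growth factor (IGF) binding proteins IGFBP1 to IGFBP7 and the receptors IGF1R and IGF2R were followed across 26 Affymetrix U133 Plus 2.0 arrays of 786-O cells, a human line from a clear cell renal carcinoma in which VHL is not functional. The members were chosen by gene name, as every probe set assigned to only 1 of these genes. This gave 24 probe sets of 9 genes, out of 41091 single-gene probe sets of 19775 genes. Of the 24, 18 probe sets from 8 genes passed the filter on low signals, which asked for a signal at or above the array's median on at least 3 of 24 arrays. Each gene was counted by 1 representative probe set, that of highest mean log2 signal over 24 arrays, and further probe sets are given beside it.

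IGF1 and IGF2 signal through IGF1R, a receptor tyrosine kinase that recruits insulin receptor substrates and drives the PI3 kinase and MAP kinase pathways. The secreted binding proteins hold the ligands away from the receptor, carry them, and release them when proteases cut the binding protein. IGF2R, the cation-independent mannose 6-phosphate receptor, takes up IGF2 for degradation and sorts lysosomal enzymes. In cells without VHL the hypoxia-inducible factor HIF-2a, encoded by EPAS1, is not degraded in normoxia, and IGFBP3 and IGFBP1 are known as genes that hypoxia can induce.

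Each group of 3 arrays carries a title: Blk for untreated cells, DMSO for the vehicle, and 40, 41, 76 and 77 for compounds found in a chemical genetic screen as HIF-2a inhibitors. Blk and the numbers were matched to the series text by elimination. PRC3 and WT8 are names in common use for 786-O sublines with an empty vector and with wild-type VHL, each a subline of its own with its own history, but the labels do not spell this out. The arrays titled pTR and pTV are 1 each. The sources used here give no doses, treatment times, compound structures or meaning of pTR and pTV, so the compounds are compared as titled groups and not at known matched doses. Nothing says that the 3 arrays of a group were separate cultures, and p-values then measure only the spread between these arrays.

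Signals were deposited as MAS5 intensities, quantile normalized here, raised to a floor of 20, and tested as log2 values with limma over 24 arrays, with Benjamini-Hochberg adjustment over 35013 probe sets. A call is an adjusted p below 0.05. Where the arrays of 2 groups are said not to overlap, this is a description. The share of all probe sets that separate in this way is not given here. Deposited medians ran from 20.2 to 27.4 across arrays, and 16.7% to 20.8% of the tested probe sets were at the floor. Compound 40 replicates 2 and 3 stand apart: each holds 54613 distinct values for 54613 probe sets, where the other arrays hold 5589 to 7809. WT8 replicate 3 had the highest ratio of 3' to 5' ACTB signal, 2.37 against at most 1.39 elsewhere. All 11 renal and clear cell carcinoma markers passed the filter with medians above 100, and 1 of 4 leukocyte markers on the array passed it. EPAS1 read 494 ± 72.8 in Blk, 464 ± 81.5 in DMSO, 446 ± 78.8 in 40, 369 ± 154 in 41, 320 ± 109 in 76, 461 ± 56.9 in 77, 727 ± 173 in PRC3 and 548 ± 39.7 in WT8 (SD, n = 3), and was called in none of the 7 comparisons. The VHL probe set read 55.4 ± 24.6 in PRC3 and 59.2 ± 14.9 in WT8 (SD, n = 3), so it did not separate the sublines, and where it lies relative to an introduced sequence was not tested.

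The core letters bound by hypoxia-inducible factors were looked up in the promoters of the members because the compounds were selected against HIF-2a. RefSeq promoters (GRCh38.p14, 250 bases before to 50 after a start) were matched for 7 of 9 members, and both strands were searched for ACGTG and GCGTG. The IGFBP3 promoter, chr7:45921223-45921522 on the minus strand, holds 3 matches, all of GCGTG. They are shown on the gene's strand with the match in capitals, the second being the reverse complement, since the IGFBP3 signal fell with compounds 41 and 76.
IGFBP3 -209, chr7:45921467-45921491: cgggctccggGCGTGcgcacgagga
IGFBP3 -167, chr7:45921425-45921449: tctcgagctgCACGCccccgagctc
IGFBP3 -55, chr7:45921313-45921337: ccgttccgggGCGTGtcctgggcca
The IGF2R promoter, chr6:159968832-159969131 on the plus strand, holds ACGTG on both strands at 3 places, as the palindrome CACGTG, and is shown for contrast.
IGF2R -131, chr6:159968941-159968965: cgctgcgctcACGTGacccgggcct
IGF2R -73, chr6:159968999-159969023: caagggagtcACGTGagcggggggc
IGF2R -27, chr6:159969045-159969069: ggcggctgtcACGTGacgcggttcc
Such letters are common: of 35116 promoters of this length, 48.4% hold at least 1 match of either motif, 10.1% hold at least 3, and 7.26% hold CACGTG. In the count of at least 3, each CACGTG gives 1 match on each strand. At least 3 copies of CACGTG occur in 33 promoters (0.094%). IGF1R, which was called in no comparison, has 5 matches, and IGFBP4, IGFBP5 and IGFBP6 have none in this window. IGFBP2 has several promoter entries, with GCGTG at -132 in entry 2, ACGTG at position 32 in entry 3 and no match in entry 1. A match is a description of the letters and not a site. IGFBP1 and IGFBP3 are next to each other on chromosome 7 with 0 protein-coding genes between them, as are IGFBP2 and IGFBP5 on chromosome 2.

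IGFBP3, the main IGF carrier of blood and a secreted inhibitor of IGF signalling in tissue, was well above the floor on every array and fell with compounds 41 and 76. On probe set 210095_s_at the signal was 3993, 2663 and 3758 in untreated cells and 2599, 1368 and 2245 with DMSO. It was 1545, 642 and 1131 with compound 40 and 1047, 608 and 906 with compound 77. Compound 41 gave 949, 269 and 840, and compound 76 gave 796, 289 and 509. All arrays of 41, 76 and 77 lay below all DMSO arrays, while 1 array of compound 40 overlapped them. In cells measured in bulk, fewer expressing cells and less RNA per cell cannot be told apart.

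As means, IGFBP3 was 2071 ± 634 with DMSO, 686 ± 365 with 41 and 531 ± 254 with 76 (SD, n = 3), or 33.1% and 25.6% of the DMSO mean. The log2 change against DMSO was -2.03 for compound 76 (SE 0.45, limma adjusted p = 0.0178, 4.09-fold lower) and -1.74 for compound 41 (SE 0.45, limma adjusted p = 0.0347, 3.34-fold lower). Compounds 77 and 40 read 41.2% and 53.4% of the DMSO mean, with log2 differences of -1.26 (interval -2.18 to -0.34, limma adjusted p = 0.410) and -0.94 (interval -1.86 to -0.02, limma adjusted p = 0.411), which did not pass. Intervals here and below are 95% intervals of the fit. The 4 comparisons share the same 3 DMSO arrays.

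The second IGFBP3 probe set, 212143_s_at, gave differences of the same sign. Here the arrays of compound 77 overlapped DMSO (log2 -1.14), as did those of compound 40 (log2 -0.71, interval -1.69 to 0.26). Signals on this probe set were 1366, 648 and 1166 with DMSO, 481, 199 and 413 with compound 41 and 501, 156 and 269 with compound 76. The log2 change was -1.87 with 76 (limma adjusted p = 0.0458) and -1.57 with 41, where the adjusted p was 0.0803, or 0.00299 once the replicate number was added as a block. Same-numbered arrays deviated together in both comparisons, with correlations of 0.17 to 0.21 for 41 and 0.18 to 0.27 for 76. The numbers come from the titles, which do not say that they mark pairs. The block fits the same effect of a number in all 8 groups, so the blocked p-values depend on that reading. The call with 76 on this probe set ended without DMSO replicate 1 (adjusted p = 0.215), DMSO replicate 3 (0.171), 76 replicate 2 (0.285) or 76 replicate 3 (0.154), without the filter (0.178) and on only the groups compared (0.208), all by limma.

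**Figure D1:**
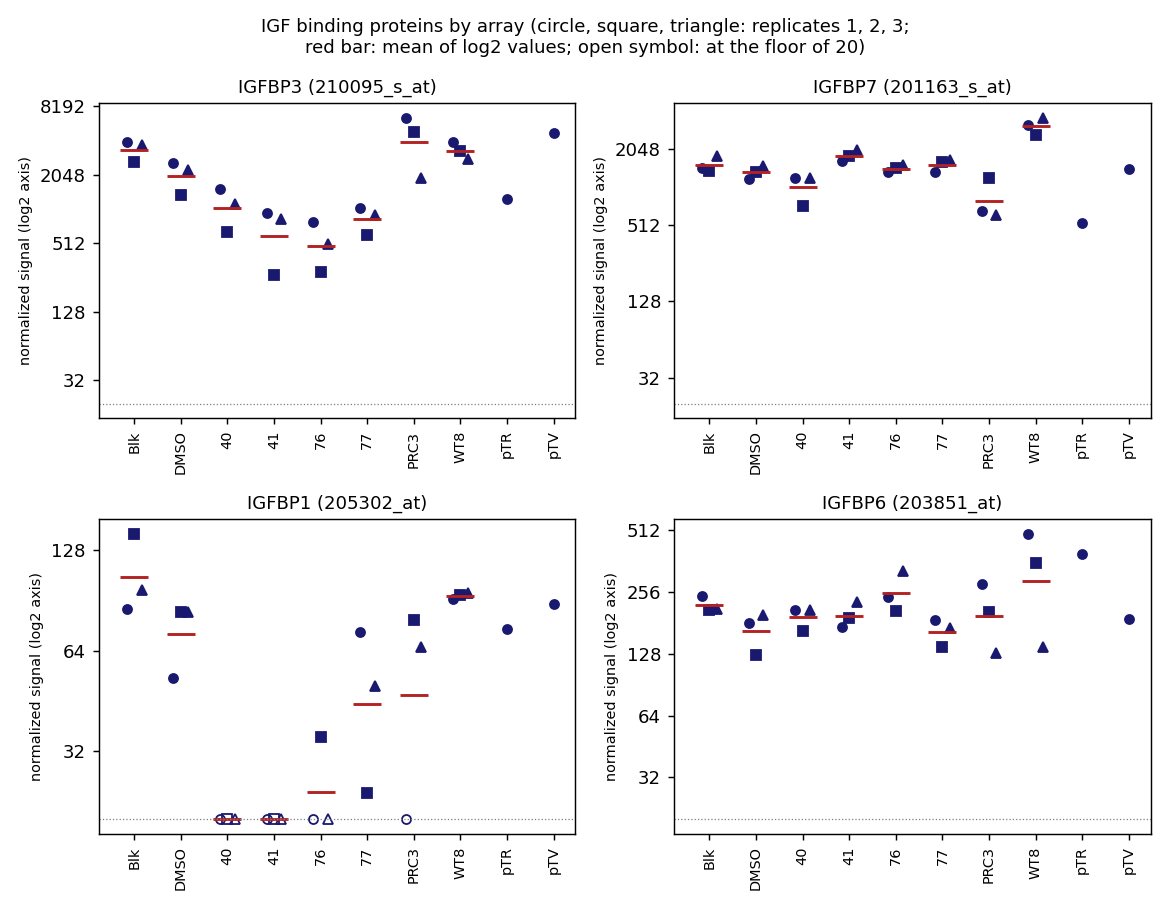
Normalized signal (log2 axis) of IGFBP3, IGFBP7, IGFBP1 and IGFBP6 on each array by title group, with circles, squares and triangles for replicates 1, 2 and 3, a red bar for the mean of log2 values and open symbols at the floor of 20. IGFBP3 is lowest with compounds 41 and 76, IGFBP1 is at the floor on all arrays of 40 and 41, and IGFBP7 is highest in WT8 on all 3 arrays.

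The spread of IGFBP3 within a group followed the replicate number among Blk, DMSO and the compounds. Replicate 2 was the lowest array in 6 of 6 of these groups. In PRC3 and WT8, which enter the same blocked fit, replicate 3 was the lowest. Taken within each number, the log2 difference from DMSO was -1.71, -2.24 and -2.14 for compound 76, -1.45, -2.35 and -1.42 for compound 41, -1.31, -1.17 and -1.31 for compound 77, and -0.75, -1.09 and -0.99 for compound 40. Every one of these values is below 0, and the 3 values of compound 77 lie closer together than its arrays do. Blocked by these numbers, the adjusted p of 210095_s_at was 0.00172 for 41 and 5.36e-04 for 76.

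**Figure D2:**
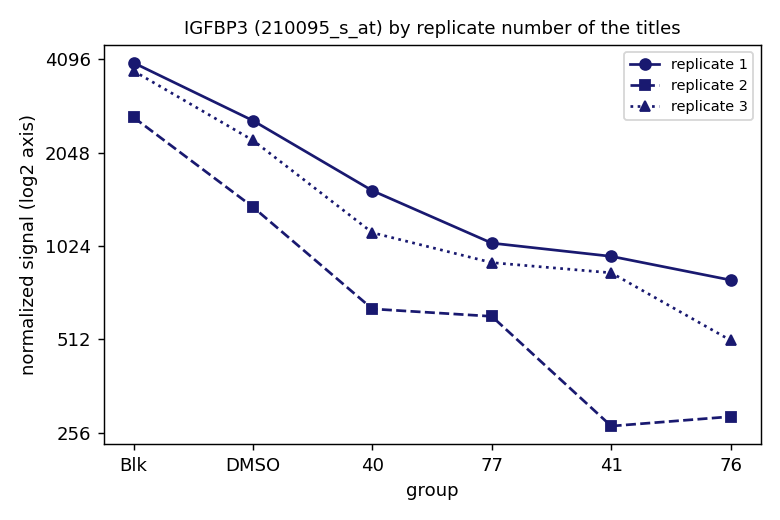
IGFBP3 signal on probe set 210095_s_at (log2 axis) in untreated cells, DMSO and the 4 compounds, with 1 line for each replicate number of the titles. Each line falls from Blk to DMSO and from DMSO to compound 40, and replicate 2 is the lowest in all 6 groups.

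The IGFBP3 calls on 210095_s_at rest on few arrays. That of compound 41 ended without DMSO replicate 1 (log2 difference -1.55, adjusted p = 0.161), DMSO replicate 3 (-1.66, 0.121) or 41 replicate 2 (-1.16, 0.218), and that of compound 76 ended without DMSO replicate 1 (-1.84, 0.104), DMSO replicate 3 (-1.95, 0.0841), 76 replicate 2 (-1.65, 0.144) or 76 replicate 3 (-2.06, 0.0682), all by limma. Without the filter on low signals the adjusted p was 0.138 for 41 and 0.0952 for 76, and on only the groups compared it was 0.211 and 0.142 by limma. With the mean of its probe sets, IGFBP3 was not called with 41 (-1.65, limma adjusted p = 0.0555) and was with 76 (-1.95, limma adjusted p = 0.0360). EPAS1 read 369 and 320 in the means of 41 and 76 against 464 with DMSO, differences that did not pass (log2 -0.40, adjusted p = 0.526 and -0.57, adjusted p = 0.348 by limma), and its part in the result was not tested.

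DMSO also read below untreated cells for IGFBP3, with no overlap of the arrays on 210095_s_at and an overlap on 212143_s_at, where Blk reached down to 1220 and DMSO up to 1366. On 210095_s_at the means were 3471 ± 710 in Blk and 2071 ± 634 in DMSO (SD, n = 3), and the log2 difference of -0.77 (interval -1.69 to 0.15, limma adjusted p = 1) did not pass. Within the replicate numbers the differences were -0.62, -0.96 and -0.74. No probe set of any gene was called in this comparison by limma (0%), and 794 (2.27%) had an unadjusted p below 0.05, so none of the 18 member probe sets was called.

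IGFBP3 in the sublines was at the upper end of its range. The PRC3 arrays read 6524, 4909 and 1938 and those of WT8 3952, 3299 and 2801, which overlap, with a log2 difference of WT8 from PRC3 of -0.26 (interval -1.18 to 0.67, limma adjusted p = 0.878). Within the numbers it was -0.72, -0.57 and 0.53, so the third difference ran the other way. In the order of mean levels, PRC3 (4457), Blk (3471), WT8 (3351), DMSO (2071), 40 (1106), 77 (854), 41 (686) and 76 (531), neighbouring groups overlapped in their arrays except WT8 and DMSO.

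IGFBP1, a binding protein made mainly by liver and repressed by insulin, had a low signal, at most 144 on the 24 arrays. It fell to the floor with compounds 40 and 41. Probe set 205302_at read 85.7, 144 and 97.4 in untreated cells and 53.0, 83.9 and 83.6 with DMSO. All 3 arrays of 40 and all 3 of 41 were at the floor of 20, and so were 2 of 3 arrays of compound 76, the remaining one reading 35.4. Compound 77 gave 72.7, 24.1 and 50.3, which overlaps DMSO.

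Against the floor, IGFBP1 was at least 3.60-fold lower than DMSO with 40 (limma adjusted p = 0.0323) and with 41 (limma adjusted p = 0.0131). With compound 76 the log2 difference was -1.57 (interval -2.42 to -0.72, limma adjusted p = 0.0572), or adjusted p = 0.0377 once the block was added and 0.0436 on the signals as deposited. With 77 it was -0.69 (limma adjusted p = 0.763). Since the DMSO signal is itself only a few times the floor, a fall below the floor cannot be read.

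The IGFBP1 call with compound 40 ended without any 1 of the 3 DMSO arrays (limma adjusted p = 0.0543, 0.157 and 0.129), without 40 replicate 2 (0.127) or 3 (0.0790), and without both of those arrays (0.461), as well as under median scaling (0.0572), without the filter (0.102) and on only the groups compared (0.142). That with compound 41 ended without DMSO replicate 2 (0.0656) or 3 (0.0632) or 41 replicate 1 (0.0560) or 3 (0.0506). In the fits that left out arrays the log2 difference stayed between -2.07 and -1.73.

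IGFBP1 in the sublines was at the floor and at 79.3 and 65.9 on replicates 1, 2 and 3 of PRC3, and read 91.4, 94.2 and 95.1 in WT8. The log2 difference of 0.99 (interval 0.14 to 1.84, limma adjusted p = 0.215) did not pass, although no array overlapped. A second IGFBP1 probe set, 237989_at, was at the floor on all 24 arrays. Of 5 hepatocyte markers 3 passed the filter. The summed signal of all 5, with low values at the floor, was 822 to 880 with DMSO, 392 to 506 with 40 and 401 to 472 with 41. It was 355 to 409 with 76 and 620 to 731 with 77. Like IGFBP1 the sum was lower with 40, 41 and 76 than with DMSO, but it was lowest with 76. In the sublines it did not follow IGFBP1, at 500 to 652 in PRC3 and 424 to 839 in WT8, where IGFBP1 was above every DMSO array. ALB, the defining one, had a median of 11.2, below the floor, and most of the sum is SERPINA1, with a median of 548. Their part in the result was not tested.

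IGFBP7, a secreted protein with weak affinity for IGFs that is deposited in vessel basement membranes, was called between the sublines and with none of the compounds. Probe set 201163_s_at read 661, 1198 and 613 in PRC3 and 3134, 2637 and 3604 in WT8, and 201162_at read 523, 1021 and 483 in PRC3 and 2666, 2774 and 2538 in WT8. Every WT8 array was above every array of the other 7 groups on both probe sets. The log2 change was 1.98 (SE 0.20, limma adjusted p = 1.12e-06, 3.94-fold higher) and 2.06 (SE 0.21, limma adjusted p = 9.61e-07, 4.18-fold higher). Within the replicate numbers 201163_s_at differed by 2.24, 1.14 and 2.56.

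These were the only 2 of 18 member probe sets, and IGFBP7 the only 1 of 8 member genes, called between WT8 and PRC3, where 4.56% of all probe sets were called. Of 6 endothelial markers 4 passed the filter, VWF was at the floor on all 24 arrays, and the summed signal of all 6, with low values at the floor, was 181 to 197 in PRC3 and 201 to 222 in WT8. Of 7 fibroblast markers 4 passed the filter, POSTN was at the floor on all 24 arrays, and the sum of all 7 was 241 to 266 in PRC3 and 310 to 352 in WT8. The part of either list in the result was not tested. With the compounds the fibroblast sum was 275 to 326 in DMSO, 158 to 248 with 40, 256 to 261 with 41, 240 to 282 with 76 and 237 to 268 with 77, and its part in the results with the compounds was not tested. Fitted on the 6 arrays of these 2 groups alone, the adjusted p was 0.0880 for both probe sets, in a fit that called 19 probe sets in all against 1597.

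Untreated cells lay between the sublines. They read 1457, 1360 and 1805 on 201163_s_at, and PRC3 was lower than Blk by -0.96 on the log2 scale (limma adjusted p = 0.0195, 1.95-fold) on that probe set and by -1.11 (limma adjusted p = 0.00745, 2.15-fold) on 201162_at. IGFBP7 was the only 1 of 8 member genes called in this comparison, where 1.03% of all probe sets were called. The call on 201163_s_at ended without Blk replicate 3 (limma adjusted p = 0.130), PRC3 replicate 1 (0.0796) or PRC3 replicate 3 (0.0979), and that on 201162_at without Blk replicate 3 (0.0569). The first also ended under median scaling (0.0525) and without the filter (0.0731), and both ended on only the groups compared (0.327 and 0.295).

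With the compounds IGFBP7 stayed within the range of 729 to 1988 on 201163_s_at. All arrays of compound 41 (1634, 1803 and 1988) lay above those of DMSO (1192, 1350 and 1511), with a log2 difference of 0.42 (interval 0.00 to 0.85, limma adjusted p = 0.377), and 0.47 (adjusted p = 0.324) on 201162_at. For compound 40 the probe sets disagreed, at -0.40 and 0.01. Its replicate 2 read 729 on one and 1220 on the other. The third probe set, 213910_at, had a median of 9.85, below the floor. It was above the floor only on replicates 2 and 3 of WT8 in the sublines, with a log2 difference of WT8 from PRC3 of 0.53 (limma adjusted p = 0.0847), or 0.80 (0.00236) without WT8 replicate 1.

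**Figure D3:**
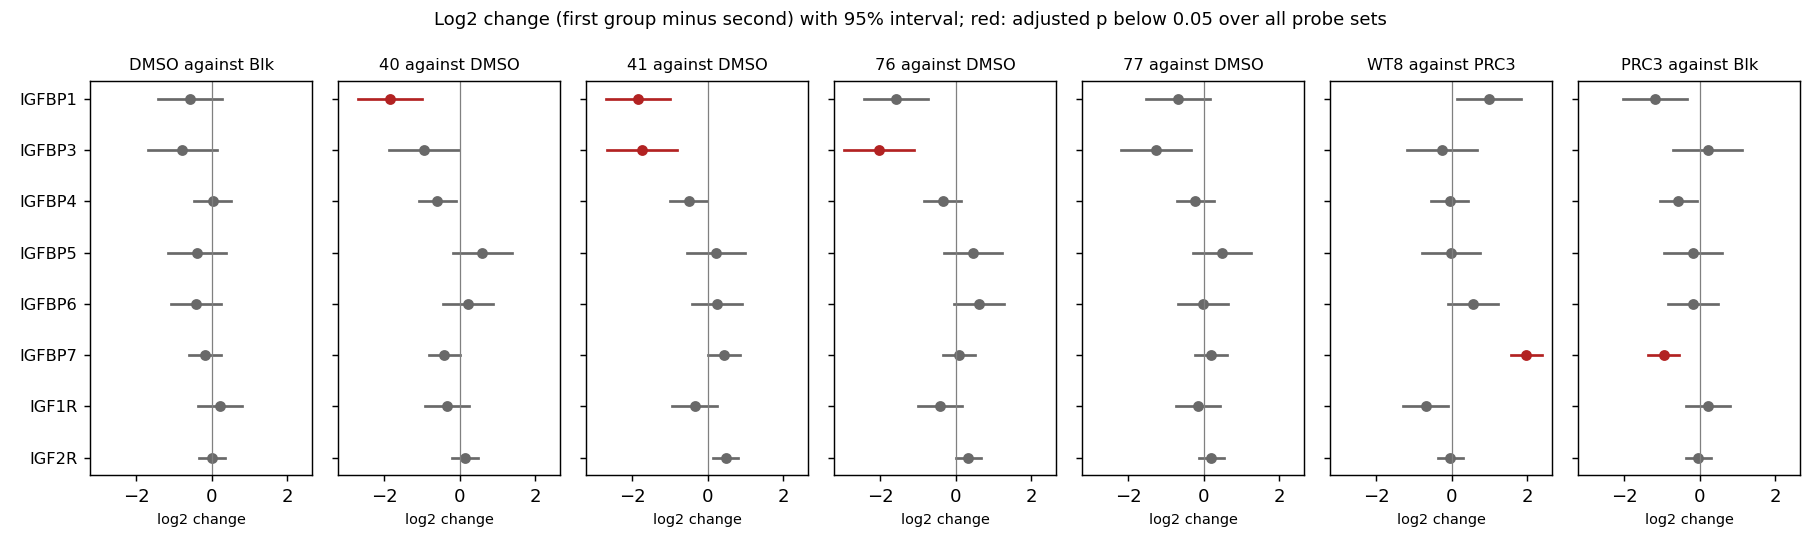
Log2 change of the 8 member genes that passed the filter in each of 7 comparisons, first group minus second, as a point with its 95% interval from the limma fit. Red marks adjusted p below 0.05, which holds for IGFBP1 with 40 and 41, IGFBP3 with 41 and 76, and IGFBP7 in WT8 against PRC3 and in PRC3 against Blk.

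IGFBP6, which prefers IGF2 to IGF1, read between 126 and 494 on 203851_at. It was called in no comparison. The WT8 arrays read 494, 354 and 138 and those of PRC3 280, 205 and 130, a log2 difference of 0.57 (interval -0.10 to 1.23, limma adjusted p = 0.432). Replicate 3 was the lowest array in both sublines, and within the numbers the differences were 0.82, 0.79 and 0.09. Without WT8 replicate 3, the array with the highest 3' to 5' ratio of ACTB, the difference was 1.10 (limma adjusted p = 0.0174). That fit kept the low PRC3 replicate 3, whose ratio was 1.18. The part of the ACTB ratio in the result was not tested. With compound 76 the arrays read 243, 207 and 326, all above the DMSO arrays at 182, 126 and 199, with a log2 difference of 0.61 (interval -0.05 to 1.28, limma adjusted p = 0.542).

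The remaining binding proteins were near or under the floor. IGFBP2, which can bind integrins, has 1 probe set, 202718_at, which was at the floor on all 24 arrays, with a highest deposited signal of 11.4, and was not tested. IGFBP4, the binding protein cut by pappalysin-1, had a median of 21.8 on 201508_at with 10 of 24 arrays at the floor. Its values were 29.6, 31.8 and 32.8 with DMSO and at most 22.6 with compound 40, a log2 difference of -0.59 that did not pass (limma adjusted p = 0.298). IGFBP5, which binds extracellular matrix, had a median of 33.4 on its representative probe set, 203425_s_at, and 203426_s_at and 211958_at were at the floor on 12 and 17 of 24 arrays. Its other 3 probe sets, 1555997_s_at, 203424_s_at and 211959_at, were at the floor on all 24 and did not pass the filter. On 203425_s_at the log2 differences between the compounds and DMSO were 0.22 to 0.60, and none passed. Differences of these low signals are compressed by the floor.

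IGF1R, the signalling receptor, had a median signal of 72.3 on 225330_at and was called in no comparison. The WT8 arrays read 41.9, 57.3 and 69.9, all below those of PRC3 at 93.0, 71.3 and 107, with a log2 difference of -0.69 (interval -1.28 to -0.11, limma adjusted p = 0.207). Compounds 40 and 41 lay below DMSO on every array, at 63.4 to 76.9 and 62.6 to 78.4 against 81.7 to 99.1, with log2 differences of -0.33 and -0.35 (limma adjusted p = 0.704 and 0.694). The next probe set, 203627_at, read 49.7 to 83.1 with compound 41 and 39.3 to 50.9 with DMSO, on the other side. The other 3 IGF1R probe sets, 203628_at, 243358_at and 208441_at, were at the floor on 11, 17 and 17 of 24 arrays.

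IGF2R, the uptake and sorting receptor, read between 306 and 614 on 201393_s_at and was called in no comparison. DMSO read 356, 380 and 370 and untreated cells 387, 339 and 376, which overlap. Compound 41 read 614, 482 and 455, compound 76 553, 428 and 423, and compound 77 465, 412 and 398, all above every DMSO array. The log2 differences from DMSO were 0.48 for 41 (interval 0.14 to 0.81, limma adjusted p = 0.143), 0.33 for 76 (limma adjusted p = 0.489) and 0.20 for 77 (limma adjusted p = 0.867). The second probe set, 201392_s_at, gave 0.47, 0.33 and 0.23, and the third, 1569052_at, was at the floor on 22 of 24 arrays and was not tested. None passed, with the replicate block either (adjusted p = 0.0607 for 41), and these differences share the DMSO arrays, whose SD of 12.1 was the smallest of the 8 groups.

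**Figure D4:**
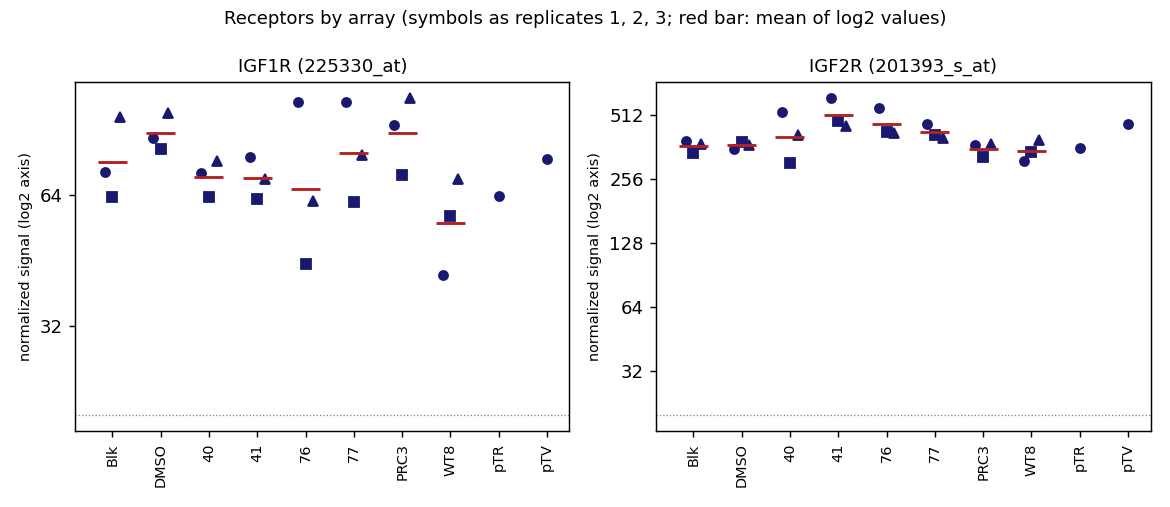
Normalized signal (log2 axis) of IGF1R and IGF2R on each array by title group, with circles, squares and triangles for replicates 1, 2 and 3 and a red bar for the mean of log2 values. IGF2R lies above the 3 DMSO arrays on all arrays of compounds 41, 76 and 77, and IGF1R is lower in WT8 than in PRC3 on all arrays. Neither passed the test, and the share of all probe sets that separate in this way is not given.

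Counted over the compounds against DMSO, 1 of 8 member genes was called with compound 40 (IGFBP1), 2 with 41 (IGFBP1 and IGFBP3), 1 with 76 (IGFBP3) and 0 with 77, and each of these was lower. By probe set this was 1, 2, 2 and 0 of 18. Of all 35013 probe sets, 0.685% were called with 40, 2.54% with 41, 1.35% with 76 and 0.171% with 77. With the replicate block the number called over all probe sets moved from 889 to 1525 for 41 and from 474 to 849 for 76. For compound 77, 7.63% of all probe sets had an unadjusted p below 0.05 by limma. The median log2 difference of the 8 member genes was -0.37, -0.07, -0.13 and -0.08 in the same order, beside 0.00 to 0.01 over all genes.

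The compounds were also compared among themselves in the 6 possible pairs. The limma F test across the 4 compounds called 0.994% of all probe sets and none of the 18 of the members. For IGFBP3 the adjusted p was 0.533, for IGFBP1 0.350, and for IGFBP7 0.158 and 0.620 on its 2 main probe sets. The IGFBP3 difference of 76 from 40 was -1.09 (interval -2.01 to -0.17), that of 41 from 40 was -0.80 (interval -1.72 to 0.12), that of 77 from 76 was 0.77 (interval -0.15 to 1.69), and that of 76 from 41 was -0.29 (interval -1.21 to 0.63). The remaining pairs differed by 0.48 (77 from 41) and -0.32 (77 from 40). In all 6 pairs the interval reaches past a 2-fold difference, so the compounds were neither separated nor shown to act alike on IGFBP3. IGFBP7 was higher with 41 than with 40 by 0.82 (interval 0.40 to 1.25) on 201163_s_at and by 0.45 (interval 0.02 to 0.89) on 201162_at. The F test did not pass on either.

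The arrays pTR and pTV have no replicate, so their values carry no test. IGFBP3 read 1261 in pTR and 4787 in pTV, a log2 difference of -1.92, and -2.38 on its second probe set. IGFBP7 read 532 against 1429, or -1.43, and -1.55 on its second probe set. IGFBP6 ran the other way, at 395 against 188, or 1.07. These probe sets and 243358_at of IGF1R, which was at the floor in pTR and at 58.7 in pTV, are the member probe sets at least 2-fold apart, as were 11.7% of all probe sets between these arrays. IGFBP1 (74.6 and 88.6) and IGF2R (359 and 464) differed by less.

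The surroundings of the members were taken from 5 gene lists. Of 5 IGF ligands and insulin-family receptors, 3 passed the filter and 0 were called in any comparison. IGF1 was at most 45.0 and insulin at most 5.71, and IGF2 has no probe set of its own in the annotation used. Of 12 proteases, partners and modulators of the binding proteins, 11 were tested, and STC1 and MMP2 were called. STC1, stanniocalcin 1, an inhibitor of the pappalysins that cut IGFBP4, read 44.7, 47.2 and 39.0 with compound 41 against 105, 91.7 and 87.2 with DMSO, a log2 change of -1.12 (limma adjusted p = 0.0121, 2.17-fold lower). It was the only 1 of 11 called with compound 41 (median of the 11 0.17), and 0 were called with 40, 76 or 77. The call ended without DMSO replicate 1 (-1.04, limma adjusted p = 0.0674) or 41 replicate 3 (-1.04, 0.0653), and on only the groups compared (0.0551). Of all probe sets 2.54% were called with 41.

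STC1 was also lower in WT8, at 55.8, 64.6 and 58.1, than in PRC3, at 204, 178 and 99.8 (log2 -1.37, limma adjusted p = 0.00112, 2.59-fold). MMP2, a secreted metalloproteinase with binding proteins among its substrates, was the other of 11 called there, at 115, 89.4 and 71.8 in WT8 against 266, 243 and 162 in PRC3 (log2 -1.28, limma adjusted p = 0.00509). Thus 2 of 11 were called where 4.56% of all probe sets were, and on only the groups compared neither was (adjusted p = 0.167 and 0.155). The median of the 11 was -0.09 beside 0.01 over all genes.

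Of 13 other proteins with an IGFBP domain, 8 were tested. CCN3, a matricellular protein, was the only 1 called, in WT8 against PRC3. It read 109, 152 and 89.9 in WT8 and 23.5, 27.9 and the floor in PRC3, a log2 change of 2.28 (limma adjusted p = 4.35e-05, 4.84-fold higher), beside 4.56% of all probe sets called, and 0.0643 on only the groups compared. With compound 41 the median of the 8 was 0.58, beside 0.01 over all genes, and none was called. CCN2, a matricellular protein of the same family, read 255, 202 and 161 with 41 against 23.6, 38.8 and 47.6 with DMSO, and CCN1, another, 2093, 2238 and 1195 against 754, 1138 and 713, both without overlap. Their log2 differences of 2.52 (SE 0.87, limma adjusted p = 0.146) and 1.06 (SE 0.50, limma adjusted p = 0.354) did not pass, and both genes were highest among the sublines on replicate 3 of PRC3 and of WT8.

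Downstream of IGF1R, 29 of 34 listed genes were tested. IRS2, an adaptor that couples the insulin and IGF1 receptors to PI3 kinase, was the only 1 of 29 called with compounds 41 and 76. It read 1641, 1476 and 1509 with DMSO, 1000, 654 and 773 with 41, and 899, 632 and 666 with 76. No array overlapped, and the log2 change was -0.95 with 41 (SE 0.21, limma adjusted p = 0.0141, 1.93-fold lower) and -1.09 with 76 (SE 0.21, limma adjusted p = 0.00697, 2.13-fold lower). The call with 41 ended without DMSO replicate 1 (adjusted p = 0.0682), 41 replicate 2 (0.0841) or 41 replicate 3 (0.0600), without the filter (0.0607) and on only the groups compared (0.0675), and that with 76 without 76 replicate 2 (0.0520) or 76 replicate 3 (0.0506) and on only the groups compared (0.0700), by limma. Of all probe sets 2.54% were called with 41 and 1.35% with 76. With compound 77 the log2 difference of IRS2 was -0.73 (limma adjusted p = 0.264), which did not pass. It was called with the replicate block (limma adjusted p = 0.0159), where the lowest correlation of same-numbered arrays was 0.07. Without 77 replicate 1 it was also called (-0.996, limma adjusted p = 0.0367). With compound 40 the difference was -0.39 (limma adjusted p = 0.495). The 29 genes had a median of -0.12 with 41 and -0.07 with 76.

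IRS2 was also lower in WT8, at 381, 231 and 394 against 2222, 1839 and 2004 in PRC3 (log2 -2.63, SE 0.21, limma adjusted p = 3.20e-08, 6.19-fold). AKT1, the kinase activated by PI3 kinase signalling, was 138, 107 and 69.1 in WT8 and 261, 296 and 301 in PRC3 (log2 -1.50, limma adjusted p = 3.29e-05, 2.83-fold lower). SOCS2, a suppressor of growth hormone and IGF signalling, was lower by -1.23 (limma adjusted p = 0.0430), a call that ended without any 1 of the 6 arrays (adjusted p 0.0526 to 0.188), with the signals as deposited (0.0710) and without the filter (0.0896). PIK3R3, a regulatory subunit of PI3 kinase, was higher by 1.34 (limma adjusted p = 0.00278). Thus 1 of 29 was higher and 3 were lower in WT8, with a median of -0.09, where 4.56% of all probe sets were called. Counted by the mean of a gene's probe sets, 1038 of 15124 genes were called there. On only the groups compared none of the 4 was called (adjusted p = 0.0520 for IRS2, 0.117 for AKT1, 0.148 for SOCS2 and 0.219 for PIK3R3), in the fit that called 19 probe sets in all. Of 11 genes of mannose 6-phosphate sorting, the other function of IGF2R, all were tested and 0 were called in any of the 7 comparisons.

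**Figure D5:**
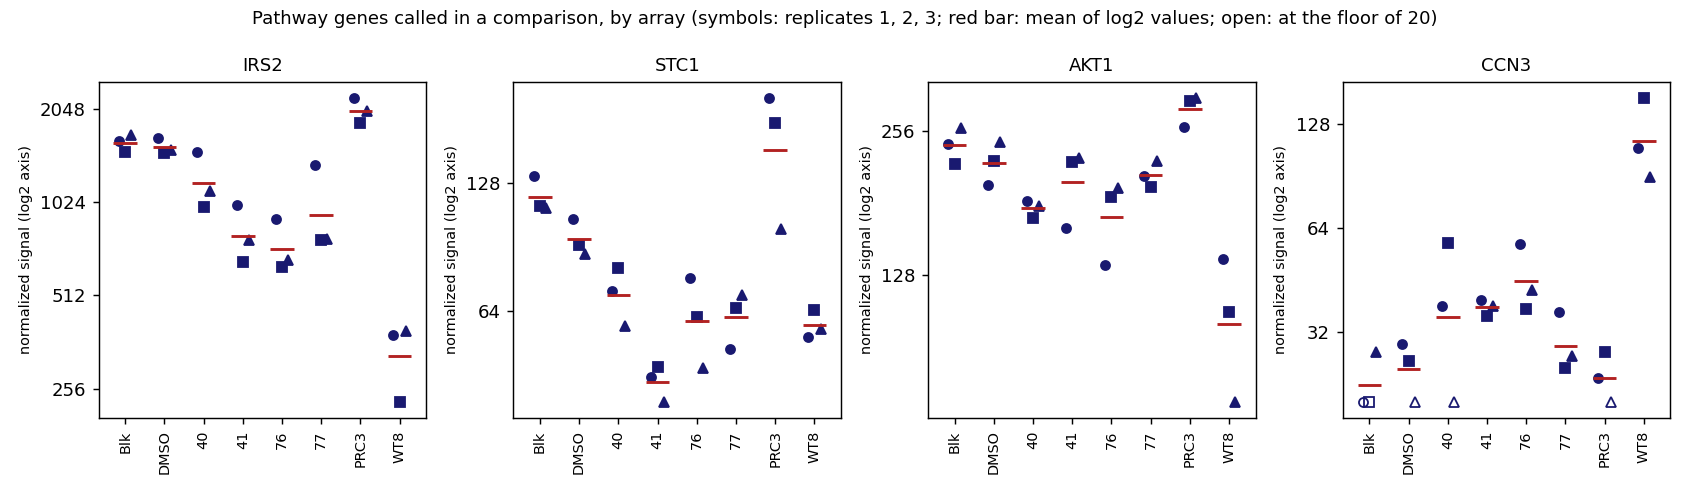
Normalized signal (log2 axis) of IRS2, STC1, AKT1 and CCN3 on each array of the 8 groups, with circles, squares and triangles for replicates 1, 2 and 3, a red bar for the mean of log2 values and open symbols at the floor of 20. IRS2 is below DMSO on all arrays of 41 and 76, and in WT8 IRS2 and AKT1 are below and CCN3 above all arrays of PRC3.

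The genes whose log2 signals ran most like those of the called members were ranked by Pearson's r over the 24 arrays, which share the 8 groups, among 15119 genes. For IGFBP3 they were LINC02274, a non-coding RNA gene (r = 0.936), ZBED10P, a pseudogene (0.924), and ADD3, which encodes a subunit of the membrane skeleton protein adducin (0.918). LINC02274 averaged 475 in Blk, 360 in DMSO, 54.5 with 41 and 69.4 with 76. For IGFBP1 they were OAS3, an interferon-induced enzyme (0.837), TNFAIP8 (0.813) and C1GALT1C1, a chaperone for O-glycosylation (0.813), and for IGFBP7 HMGN5, a nucleosome-binding protein (0.864), RAB31, a small GTPase of vesicle transport (0.856), and UQCRC2, a subunit of respiratory complex III (0.840). RAB31 was at the floor in all PRC3 arrays and averaged 146 in WT8. These correlations are given as a description.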

How the data were processed

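Total RNA of 26 samples was hybridised to 26 arrays. The values are signal intensities, deposited by the authors on a linear scale, and made with MAS5 per the submitters' processing notes. The sources used here give neither its version nor its scaling. The labels' floor of 20 and ceiling of 16000 were applied here after quantile normalization without 62 control probe sets. A floor compresses differences of low signals. Values were log2-transformed and fitted with limma 3.58.1 (R 4.3.3, trend, 16 residual degrees of freedom) over 8 groups. The arrays' number limits the precision. Folds are differences of log2 means. The fit was run on simulated data with independent normal noise, no floor and no shared effect of replicate numbers. Changes were set there only in probe sets of higher mean signal. That run does not cover signals near the floor, such as those of IGFBP1. Gene names came from the platform annotation: 41091 probe sets had 1 gene, 1801 several and 11721 none, and 41037 of the 41091 matched RefSeq.

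The text names every member probe set, the list genes called in any comparison, the 3 genes most correlated with each called member, and EPAS1, VHL and HIF1A as checks. CCN1 and CCN2 were added after their values were seen. HIF1A was at most 28.6 and was not tested. Members and lists were chosen with earlier results of these data known. Same-numbered arrays deviated together (every correlation over 0.1) in DMSO against Blk (0.15 to 0.29), 41 (0.17 to 0.21) and 76 (0.18 to 0.27) against DMSO, and WT8 against PRC3 (0.11 to 0.46). The numbers come from the titles. The closest arrays correlated at r = 0.978, so none was a copy. Alternatives were the signals as deposited, median scaling, log2(signal + 20) without floor, no filter, the replicate block, only the groups compared, the mean of a gene's probe sets, leaving out compound 40 replicates 2 and 3, and leaving out each array.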

Additional observations from a re-analysis of the deposited data

How the results depend on the processing

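The 9 called values of member probe sets were recomputed in 117 alternatives. None changed sign, 77 kept the call and 40 lost it. The 117 uncalled member values were recomputed in 1521 alternatives, and 5 of these made a call (IGFBP3 212143_s_at with 41, IGFBP1 with 76 in 2, IGFBP6 and IGFBP7 213910_at in WT8). The cause of each loss was not tested. Scaling moved the median log2 change of all probe sets by -0.04 to 0.07.

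With the signals as deposited 2 member genes were called for 76. With median scaling the probe sets called moved to 100 for 40, 513 for 41, 27 for 77, 186 for PRC3 against Blk and 226 for the difference among compounds, and the member genes to 0 for 40 and 0 for PRC3 against Blk. Without the filter 3 probe sets were called for DMSO against Blk, 149 for 40 and 34 for 77, and the member genes called were 0 for 40, 1 for 41, 0 for 76 and 0 for PRC3 against Blk. On only the groups compared the probe sets were 6 for 40, 374 for 41, 126 for 76, 0 for 77, 19 for WT8, 0 for PRC3 against Blk and 162 among compounds, and the member genes 0 for 40, 1 for 41, 0 for 76, 0 for WT8 and 0 for PRC3 against Blk. By limma 2672 probe sets had an unadjusted p below 0.05 for 77 and 3912 for PRC3 against Blk. Without compound 40 replicates 2 and 3, 25 probe sets and 0 member genes were called for 40, and 201 probe sets among compounds. With a gene's mean, 1 member gene was called for 41 and 2 for 76. For 41 IGFBP3 lost its call (-1.65, limma adjusted p = 0.0555), and for 76 IGFBP1 gained one (limma adjusted p = 0.0488). Of 15124 genes so counted, 102 were called for 40, 571 for 41, 266 for 76 and 26 for 77. For WT8 against PRC3 the number was 1038 and for PRC3 against Blk 246. Shares of genes can differ from the shares of probe sets given above.

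With the replicate number as a block, 534 probe sets were called for 40, 1525 for 41, 849 for 76, 175 for 77, 697 for PRC3 against Blk and 773 among compounds, with 2 member genes for 76. It changed no other member call than those given above. In 40, 77 and PRC3 against Blk the arrays share only a number (lowest correlations 0.08, 0.07 and 0.01).

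Leaving out 1 array gave 0 to 2 probe sets for DMSO against Blk, 50 to 622 for 40, 419 to 685 for 41, 226 to 381 for 76, 15 to 125 for 77, 1006 to 1869 for WT8, 151 to 311 for PRC3 against Blk and 189 to 644 among compounds. Member genes called were 0 to 1 for 40, 41, 76 and PRC3 against Blk, 1 to 2 for WT8 and 0 in the others. Signals near the floor limit IGFBP1, IGFBP2, IGFBP4 and IGFBP5.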
